A study of Mus musculus with 12 samples.

Results

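The genes of the mitochondrial ribosome were followed in C2C12 cells, a mouse myoblast line, with and without knockdown of Cebpg and with and without thapsigargin. Members were all protein-coding genes in the count files whose GENCODE vM21 symbol begins with Mrpl or Mrps followed by a digit. They numbered 78 of 53801 gene identifiers, 49 named Mrpl for the large subunit and 29 named Mrps for the small subunit. Group Sh2-Thap carried the knockdown and received thapsigargin for 6 h. Group Sh2-DMSO carried the knockdown and received the solvent DMSO for 6 h. Groups Ctrl-Thap and Ctrl-DMSO were control cells given the same treatments. Each group held 3 libraries, 12 in all, made from poly(A) RNA. The knockdown goes by 1 label, Sh2, and the sources used here do not give the construct of the control cells. An effect of Cebpg loss and an effect of that construct or cell population cannot be told apart. The culture protocol speaks of HeLa, while every library is labelled C2C12 and mouse. Thapsigargin blocks the calcium pump of the endoplasmic reticulum and sets off the unfolded protein response and the integrated stress response, in which C/EBP gamma pairs with ATF4.

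Mitochondrial ribosomes translate the few proteins that mitochondrial DNA encodes, all of them subunits of the oxidative phosphorylation complexes. Their ribosomal RNAs are transcribed in the organelle, whereas each of their proteins is encoded in the nucleus, made in the cytosol and imported. The proteins fall into families shared with bacterial ribosomes and families found in mitochondrial ribosomes alone, and muscle depends heavily on their products. Symbols do not fully follow place: the proteins of Mrps18a and Mrps30 sit in the large subunit, and the protein of Mrps36 is known as a subunit of the 2-oxoglutarate dehydrogenase complex. By place the members thus comprised 51 genes of the large subunit, 26 of the small subunit and Mrps36. Counts below follow the symbol unless place is named.

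The libraries held 29.4 to 47.7 M gene reads (M, mega). Between replicates the chi-square of the counts was 2.51 to 9.83 per gene, above what counting alone gives. The labels do not say whether replicates were separate cultures, and p-values measure only the spread among these libraries. Levels are counts per M gene reads after TMM scaling (CPM). Cebpg averaged 5.66 ± 0.42 CPM in Sh2-Thap and 216 ± 4.0 CPM in Ctrl-Thap, and 4.52 ± 0.72 CPM in Sh2-DMSO and 54.6 ± 5.2 CPM in Ctrl-DMSO (SD, n = 3 each). The myoblast genes Myod1, Myf5, Des and Cdh15 were well expressed, with Myod1 means of 107 to 151 CPM, whereas Pax7 averaged 0.24 to 1.53 CPM and Msc 0.82 to 4.04 CPM over the groups. The 6 myoblast markers summed to 1199 to 1263 CPM in Sh2-Thap and 1102 to 1217 CPM in Sh2-DMSO libraries. In control cells they summed to 1259 to 1331 CPM in Ctrl-Thap and 1535 to 1685 CPM in Ctrl-DMSO libraries. Within these sums single markers moved in opposite directions. Myf5 averaged 417 CPM in Sh2-Thap, 73.6 in Sh2-DMSO, 252 in Ctrl-Thap and 61.8 in Ctrl-DMSO. Des averaged 545, 765, 784 and 1187 CPM in the same order. Of the other cell types, 4 epithelial markers summed to 6.29 to 7.40 CPM in Sh2-Thap, 0.32 to 0.43 CPM in Sh2-DMSO, 2.54 to 3.06 CPM in Ctrl-Thap and 0.14 to 0.29 CPM in Ctrl-DMSO, with Epcam at 0 in control cells. The leukocyte sum, up to 22.2 CPM, was nearly all Cd14, and Ptprc, Cd3e and Adgre1 each averaged at most 0.26 CPM in any group. Endothelial sums reached 3.11 CPM and adipocyte sums 1.89 CPM. The part of these marker shifts in the results below was not tested.

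Transcript levels of the members spanned a wide range in Ctrl-DMSO cells. Per kilobase of transcript, the median member stood at 30.0 CPM. The highest were Mrpl42, Mrpl20 and Mrpl13 in the large subunit, with 125, 106 and 104 CPM per kilobase. In the small subunit Mrps21 and Mrps17 led with 81.9 and 74.0 CPM per kilobase. Mrpl35 and Mrpl1 were the lowest large subunit genes with reads, at 5.80 and 6.97 CPM per kilobase. The 3 bacterial S18 relatives differed widely: Mrps18a, which sits in the large subunit, reached 49.1 CPM per kilobase, Mrps18b 17.2 and Mrps18c 1.72. Mrpl53 had 0 reads in all 12 libraries, which by a floor of 3 reads allows at most 0.102 CPM in the smallest of them. Of its exon bases 88.0% are shared with other annotated genes, the same-strand Gm42688 among them, which held 0 to 3 reads per library. The count files hold an entry for ambiguous reads, with 6.47% to 6.88% of reads that are tied to no gene. The other 77 members were tested. Exons of 33 members overlap those of another gene, with 69.8% of the exon bases of Mrps25 and 77.8% of those of Mrps34 shared. The sources used here do not state whether counting used strand, so values of Mrps25 and Mrps34 are uncertain.

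Start regions were available for 69 members from RefSeq on GRCm38.p6, as 75 windows from 250 bases before to 50 bases after an annotated start. Both strands were searched for 7 motifs, given here as their letters. The NRF1 motif, GCGCA then any base then GCGC, stood in 17.3% of member windows, against 4.60% of all 32851 windows and 8.88% of windows of genes tested. The ETS motif CCGGAAG, the core bound by GABPA, stood in 34.7% of member windows, against 8.86% and 15.8%. The YY1 motif AAGATGGCG stood in 10.7%, against 1.40% and 2.68%. The CCAAT box was found in 40.0% of member windows, against 37.4% of all windows and 37.4% of windows of genes tested. The E-box CACGTG was found in 9.33%, against 7.15% and 9.50%, and the TATA box letters TATAAA in 6.67%, against 13.6% and 7.64%. The composite C/EBP-ATF motif TGATGNAA was found in 0 of the 75 member windows, against 3.97% and 2.49%. A match or its absence describes the letters in the window only. Windows are printed 5′ to 3′ on the strand of the gene for members with a motif match or whose response set them apart, with matches in capitals. Mrps11 was chosen for its match after its values were seen. The NRF1 match of Mrpl9 starts 28 bases before the annotated start (chr3:94443086-94443385, plus strand). The ETS match of Mrpl34 starts 37 bases before it (chr8:71464676-71464975, plus strand), and that of Mrps18b 44 bases into the transcript (chr17:35916391-35916690, minus strand). The YY1 match of Mrps11 starts 108 bases before its start (chr7:78782881-78783180, plus strand). No match of these motifs was found in the windows of Mrpl49 (chr19:6057706-6058005, minus strand) and Mrps6 (chr16:92058086-92058385, plus strand).
Mrpl9: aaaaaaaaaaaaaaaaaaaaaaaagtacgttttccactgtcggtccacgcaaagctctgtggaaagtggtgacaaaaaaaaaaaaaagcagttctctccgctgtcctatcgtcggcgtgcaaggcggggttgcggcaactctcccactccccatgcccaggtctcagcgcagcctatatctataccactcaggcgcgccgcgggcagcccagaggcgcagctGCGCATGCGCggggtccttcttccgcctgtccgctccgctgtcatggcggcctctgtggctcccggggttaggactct
Mrpl34: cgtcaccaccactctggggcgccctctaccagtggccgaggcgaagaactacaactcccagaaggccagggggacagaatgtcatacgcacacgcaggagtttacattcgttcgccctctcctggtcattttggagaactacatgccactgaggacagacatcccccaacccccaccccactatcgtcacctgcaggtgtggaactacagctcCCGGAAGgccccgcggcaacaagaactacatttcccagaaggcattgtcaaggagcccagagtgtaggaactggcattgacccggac
Mrps18b: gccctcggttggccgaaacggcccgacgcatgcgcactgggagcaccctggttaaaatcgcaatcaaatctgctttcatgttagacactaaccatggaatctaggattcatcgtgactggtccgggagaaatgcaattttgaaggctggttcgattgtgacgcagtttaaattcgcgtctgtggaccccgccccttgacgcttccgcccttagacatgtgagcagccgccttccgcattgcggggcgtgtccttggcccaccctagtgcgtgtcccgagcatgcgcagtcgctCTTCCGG
Mrps11: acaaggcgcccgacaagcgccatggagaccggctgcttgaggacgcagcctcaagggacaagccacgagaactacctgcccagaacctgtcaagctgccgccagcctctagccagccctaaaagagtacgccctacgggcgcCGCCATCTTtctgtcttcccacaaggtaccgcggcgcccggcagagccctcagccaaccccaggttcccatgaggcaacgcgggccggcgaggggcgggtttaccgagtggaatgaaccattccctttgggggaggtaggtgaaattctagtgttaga
Mrpl49: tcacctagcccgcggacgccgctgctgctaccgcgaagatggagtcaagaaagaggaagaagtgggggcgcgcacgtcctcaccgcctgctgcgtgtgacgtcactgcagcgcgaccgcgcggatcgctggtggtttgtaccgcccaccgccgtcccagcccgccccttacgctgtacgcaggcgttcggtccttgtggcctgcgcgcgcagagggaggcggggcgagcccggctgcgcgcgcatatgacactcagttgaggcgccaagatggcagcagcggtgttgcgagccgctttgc
Mrps6: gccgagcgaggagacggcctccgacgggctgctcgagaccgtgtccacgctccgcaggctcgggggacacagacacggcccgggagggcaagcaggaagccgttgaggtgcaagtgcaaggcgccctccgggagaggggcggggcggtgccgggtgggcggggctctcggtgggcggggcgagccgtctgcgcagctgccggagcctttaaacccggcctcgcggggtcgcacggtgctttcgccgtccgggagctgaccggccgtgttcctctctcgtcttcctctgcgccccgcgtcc

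With thapsigargin, knockdown cells carried more mitoribosomal transcripts than control cells. The members summed to 2905, 3099 and 3055 CPM in Sh2-Thap libraries and 2716, 2734 and 2563 CPM in Ctrl-Thap libraries. In DMSO they summed to 3236, 3372 and 3076 CPM in Sh2-DMSO libraries and 2859, 2941 and 2807 CPM in Ctrl-DMSO libraries. Every knockdown library was thus above every control library of the same treatment. The sum was 13.0% higher in Sh2-Thap than in Ctrl-Thap, and 12.5% higher in Sh2-DMSO than in Ctrl-DMSO. With thapsigargin the sum changed by -6.46% in Sh2-Thap against Sh2-DMSO, where the libraries overlapped, and by -6.90% in Ctrl-Thap against Ctrl-DMSO, where they did not. These changes depend on scaling: by library totals alone the sum was 23.9% higher in Sh2-Thap than in Ctrl-Thap, and 1.62% higher, not lower, in Sh2-Thap than in Sh2-DMSO. As a share of all gene reads the members took 0.320% in Sh2-Thap, 0.315% in Sh2-DMSO, 0.259% in Ctrl-Thap and 0.285% in Ctrl-DMSO. In bulk RNA, fewer cells of a type and less RNA per cell cannot be told apart.

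Under thapsigargin the sum of the large subunit was lower relative to that of the small subunit. Mrpl genes summed to 1972 ± 62.8 CPM in Sh2-Thap and 2165 ± 99.97 CPM in Sh2-DMSO, a change of -8.92%, and to 1765 ± 54.9 CPM in Ctrl-Thap and 1943 ± 45.8 CPM in Ctrl-DMSO, a change of -9.14% (SD, n = 3 each). The Mrps sums changed by -1.46% and -2.20%, with 1048 ± 40.3 CPM in Sh2-Thap and 1063 ± 49.0 CPM in Sh2-DMSO, and 906 ± 39.7 CPM in Ctrl-Thap and 927 ± 22.4 CPM in Ctrl-DMSO. The ratio of the Mrpl to the Mrps sum within a library, which no scaling touches, was 1.85 to 1.90 in Sh2-Thap, 2.01 to 2.05 in Sh2-DMSO, 1.92 to 1.98 in Ctrl-Thap and 2.09 to 2.11 in Ctrl-DMSO. None of these ranges overlapped. With Mrps18a and Mrps30 counted in the large subunit and Mrps36 left out, the ratio was 2.12 to 2.17 in Sh2-Thap, 2.26 to 2.32 in Sh2-DMSO, 2.16 to 2.23 in Ctrl-Thap and 2.33 to 2.36 in Ctrl-DMSO, and the thapsigargin groups overlapped.

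In DMSO, more members were higher than lower in knockdown cells, by small amounts. Of 77 members tested, 41 rose and 3 fell in Sh2-DMSO against Ctrl-DMSO, and 33 did not pass the test (edgeR's quasi-likelihood test, adjusted p under 0.05 over 15828 genes). Over all genes tested, 25.0% rose and 26.5% fell. The median log2 change of the members was 0.16, beside 0.00 for all genes. Larger changes were rare: 1 member was called with a log2 rise of at least 0.5, against 9.44% of all genes, and none with such a fall, against 10.4%. Of 48 large subunit genes 27 rose and 3 fell, and of 29 small subunit genes 14 rose and 0 fell. Among proteins of bacterial families 25 of 47 rose and 2 fell, and among those found in mitochondria alone 16 of 28 rose and 1 fell.

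Mrps6, a bacterial S6 relative, rose most. Its level was 60.4, 59.7 and 57.3 CPM in Sh2-DMSO and 29.1, 33.7 and 29.0 CPM in Ctrl-DMSO libraries. The groups were far apart (log2 change 0.95, SE 0.06, adjusted p = 3.21e-14, edgeR). Slc5a3, the myo-inositol transporter gene whose exons overlap those of Mrps6 on the same strand, also rose in that comparison, with 124 ± 11.4 CPM in Sh2-DMSO and 81.6 ± 7.4 CPM in Ctrl-DMSO (log2 change 0.60). Of the exon bases of Mrps6, 19.9% are shared with other genes.

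Mrps7, a relative of bacterial S7 that binds the small ribosomal RNA, had 74.2, 81.4 and 71.4 CPM in Sh2-DMSO and 55.9, 57.9 and 50.1 CPM in Ctrl-DMSO libraries (log2 change 0.47, SE 0.06, adjusted p = 4.52e-08, edgeR). Mrpl12, a stalk protein of the large subunit also reported to bind the mitochondrial RNA polymerase, had 29.0, 30.6 and 29.1 CPM in Sh2-DMSO and 21.4, 24.1 and 20.2 CPM in Ctrl-DMSO (log2 change 0.43, SE 0.07, adjusted p = 3.61e-06, edgeR). In both genes all knockdown libraries were above all control libraries. Mrps18b, Mrpl28 and Mrpl38 rose by 0.43, 0.39 and 0.39 in log2.

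The 3 members that fell were all of the large subunit. Mrpl23, whose protein lies by the exit of the peptide tunnel, had 19.8, 22.8 and 21.0 CPM in Sh2-DMSO and 27.2, 29.6 and 26.7 CPM in Ctrl-DMSO libraries (log2 change -0.39, SE 0.08, adjusted p = 8.73e-05, edgeR). Mrpl24 changed by -0.27 and Mrpl48 by -0.23. The call of Mrpl48 was lost without Ctrl-DMSO replicate 1 or Sh2-DMSO replicate 3, at an adjusted p of up to 0.0524.

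Under thapsigargin, too, more members were higher than lower in knockdown cells. In Sh2-Thap against Ctrl-Thap 47 members rose, 8 fell and 22 did not pass the test, while 28.5% of all genes rose and 28.4% fell. The median log2 change was 0.18, beside 0.02 for all genes. By library totals alone, under which the median of all genes was 0.15, 64 members rose and 3 fell. Of all genes 39.9% then rose and 19.99% fell. With TMM scaling 28 genes of the large subunit rose and 7 fell, and 19 of the small subunit rose and 1 fell. At a log2 size of at least 0.5, 6 members rose and 1 fell, against 12.7% and 13.3% of all genes.

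Mrpl49, a protein of mitochondrial ribosomes with no bacterial relative, rose most. It had 40.8, 43.2 and 40.1 CPM in Sh2-Thap and 22.9, 23.6 and 20.2 CPM in Ctrl-Thap libraries (log2 change 0.89, SE 0.06, adjusted p = 2.91e-14, edgeR). In DMSO its change was 0.30 (SE 0.06, adjusted p = 4.15e-05, edgeR), with 63.9, 65.9 and 61.7 CPM in Sh2-DMSO and 49.9, 54.3 and 51.4 CPM in Ctrl-DMSO libraries. The knockdown libraries were the higher ones in both treatments.

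Mrpl34, the relative of bacterial L34, followed with 17.4, 16.9 and 19.1 CPM in Sh2-Thap and 11.2, 11.4 and 10.6 CPM in Ctrl-Thap libraries (log2 change 0.69, SE 0.07, adjusted p = 4.94e-10, edgeR). In DMSO it changed by 0.17, a call lost without Ctrl-DMSO replicate 3 or Sh2-DMSO replicate 1, at an adjusted p of up to 0.0819. Mrpl9, the relative of bacterial L9, had 75.6, 82.5 and 82.4 CPM in Sh2-Thap and 55.0, 55.1 and 45.7 CPM in Ctrl-Thap libraries (log2 change 0.62, SE 0.06, adjusted p = 3.46e-11, edgeR). Neither gene overlapped between these groups. Mrps6 rose by 0.55, and Mrps25, whose exons are largely shared with Nr2c2 on the other strand, by 0.65.

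Mrpl24, which binds the large ribosomal RNA early in assembly in bacteria, fell most. It had 29.9, 28.0 and 29.0 CPM in Sh2-Thap and 50.3, 48.9 and 46.2 CPM in Ctrl-Thap libraries (log2 change -0.74, SE 0.06, adjusted p = 8.13e-13, edgeR). In DMSO the levels were 34.9, 31.4 and 33.0 CPM in Sh2-DMSO and 39.0, 41.7 and 38.7 CPM in Ctrl-DMSO libraries. Its knockdown libraries were the lower ones in both treatments. Mrpl50 and Mrpl16 changed by -0.33 and -0.30.

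The effects of knockdown in the DMSO and the thapsigargin libraries, which share no library, were set side by side. Calls in both and shared signs were counted for the members alone, with no share of all genes to set beside them. Of the members 31 rose in both, 3 fell in both, Mrpl23, Mrpl24 and Mrpl48, and 0 were called in opposite directions. The sign was the same in 68 of 77. Across these genes the log2 changes correlated with Pearson's r of 0.59 and Spearman's rho of 0.54, against 0.49 and 0.52 over all 15828 genes, as a description only, since genes are not independent replicates. Among the 45 members without exon overlap, 28 rose and 4 fell with knockdown under thapsigargin, and 24 rose and 1 fell in DMSO. The calls of Mrpl23 and Mrpl48 under thapsigargin were each lost without 2 single libraries, Sh2-Thap replicate 1 and a Ctrl-Thap library, replicate 1 for Mrpl23 and replicate 2 for Mrpl48, at an adjusted p of up to 0.139 and 0.0854. Both were also lost with scaling by library totals alone.

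Thapsigargin moved members in both directions. In knockdown cells, Sh2-Thap against Sh2-DMSO, 17 rose, 31 fell and 29 did not pass the test, while 35.4% of all genes rose and 34.4% fell. The median log2 change was -0.06, beside 0.00 for all genes. By library totals alone, under which the median of all genes was 0.12, 31 members rose and 21 fell. Of all genes 41.8% then rose and 27.3% fell. In control cells, Ctrl-Thap against Ctrl-DMSO, 17 rose, 30 fell and 30 did not pass the test, while 37.7% of all genes rose and 37.0% fell. The median log2 change there was -0.03. Of the large subunit 9 rose and 22 fell in knockdown cells, and 11 rose and 21 fell in control cells. Of the small subunit 8 rose and 9 fell in knockdown cells, and 6 rose and 9 fell in control cells.

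Among the larger changes falls outnumbered rises. With a log2 size of at least 0.5, 11 members fell in knockdown cells against 18.1% of all genes, and 15 fell in control cells against 23.3%. Rises of that size numbered 4 in knockdown cells against 22.3% of all genes, and 3 in control cells against 26.0%. Falls of at least 1 in log2 numbered 1 in knockdown cells, against 6.39% of all genes, and 5 in control cells, against 10.2%.

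Mrpl18, whose human protein is known for carrying 5S ribosomal RNA into mitochondria, fell most in knockdown cells. It had 13.7, 16.9 and 14.3 CPM in Sh2-Thap and 36.1, 38.9 and 33.0 CPM in Sh2-DMSO libraries (log2 change -1.27, SE 0.07, adjusted p = 2.07e-16, edgeR). In control cells it had 11.9, 11.7 and 11.8 CPM in Ctrl-Thap and 29.4, 28.6 and 29.3 CPM in Ctrl-DMSO libraries (log2 change -1.30, SE 0.08, adjusted p = 1.09e-16, edgeR). Thapsigargin libraries were the lower ones without overlap.

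Mrpl42, the highest member per kilobase, had 45.8, 46.7 and 43.1 CPM in Sh2-Thap and 89.2, 95.4 and 85.6 CPM in Sh2-DMSO libraries (log2 change -0.995, SE 0.05, adjusted p = 1.56e-17, edgeR). In control cells it had 47.0, 44.3 and 42.7 CPM in Ctrl-Thap and 82.0, 82.3 and 83.6 CPM in Ctrl-DMSO libraries (log2 change -0.89, SE 0.05, adjusted p = 1.5e-16, edgeR). The thapsigargin levels of both cell populations overlapped each other. Mrps21, the relative of bacterial S21, changed by -0.86 in knockdown cells and -1.07 in control cells, and Mrps33 by -0.55 and -0.62. Mrps25 changed by -0.82 and -1.06.

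Mrps18b, 1 of the S18 relatives, rose most in control cells. It had 25.7, 26.6 and 27.7 CPM in Sh2-Thap and 19.3, 19.6 and 17.2 CPM in Sh2-DMSO libraries (log2 change 0.51, SE 0.07, adjusted p = 2.46e-07, edgeR). In control cells it had 26.1, 24.1 and 25.4 CPM in Ctrl-Thap and 14.5, 12.1 and 14.9 CPM in Ctrl-DMSO libraries (log2 change 0.86, SE 0.08, adjusted p = 4.01e-12, edgeR). The 2 thapsigargin groups overlapped and the 2 DMSO groups did not. Its relatives did not pass the test: Mrps18a changed by 0.03 and -0.05, and Mrps18c, near 1 CPM, by -0.46 and 0.06 in knockdown and control cells.

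Mrps30 rose by 0.52 in knockdown cells and 0.48 in control cells, with 33.3, 38.1 and 37.7 CPM in Sh2-Thap, 25.7, 26.5 and 23.6 CPM in Sh2-DMSO, 27.2, 28.2 and 27.5 CPM in Ctrl-Thap and 19.2, 20.1 and 20.2 CPM in Ctrl-DMSO. Mrpl33, the relative of bacterial L33, rose by 0.86 and 0.57, and Mrpl1, of the L1 stalk by the exit site for transfer RNA, by 0.45 and 0.47. Mrps2 rose by 0.50 and 0.32. Each rose in both cell populations.

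The thapsigargin comparisons in knockdown and control cells share no library. Here too, calls in both and shared signs were counted for the members alone, with no share of all genes beside them. Of the members 14 rose in both, 27 fell in both and 1, Mrpl24, rose in control and fell in knockdown cells. The sign was the same in 62 of 77. The log2 changes correlated with Pearson's r of 0.89 and Spearman's rho of 0.89, against 0.87 and 0.83 over all genes, again as a description across genes. Among the 45 members without exon overlap, 10 rose and 17 fell in knockdown cells and 10 rose and 19 fell in control cells.

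The thapsigargin change varied with transcript length, taken as the median over the protein-coding transcripts of a gene. Across 77 members Spearman's rho between length and log2 change was 0.43 in knockdown cells and 0.40 in control cells, and 0.10 and 0.12 over 13508 protein-coding genes tested. Among the 25 shortest members, 405 to 803 bases, 2 rose and 14 fell in knockdown cells, with a median log2 change of -0.27, and 2 rose and 14 fell in control cells, with a median of -0.21. All protein-coding genes tested of that length, members included, had medians of -0.19 and -0.22. Of them 47.2% fell in knockdown cells and 50.4% in control cells. Among the 26 longest members, 1424 to 6073 bases, 9 rose and 3 fell in knockdown cells and 10 rose and 4 fell in control cells. Their medians were 0.04 and 0.06, beside 0.05 and 0.06 for all protein-coding genes tested of that length, members included. Of the latter 39.7% and 42.6% rose. The knockdown effect gave a rho of -0.06 under thapsigargin and 0.06 in DMSO. With a trend on transcript length removed, the thapsigargin counts became 21 up and 28 down in knockdown cells. In control cells they became 22 up and 27 down. Over all genes in that fit 35.4% rose and 34.1% fell in knockdown cells, and 38.3% and 36.5% in control cells.

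The difference between the thapsigargin effects, knockdown minus control cells, was tested as an interaction. It was called up for 7 members and down for 7, and 63 did not pass the test, while 17.7% of all genes were called up and 17.7% down. Its median was 0.03, beside 0.01 for all genes. At a log2 size of at least 0.5, 2 members were called up and 0 down, against 7.66% and 7.90% of all genes. By library totals alone, under which the median of all genes was 0.17, 29 members were called up and 2 down. Of all genes 32.9% were then called up and 10.6% down. The call was positive where thapsigargin lowered a gene less, or raised it more, in knockdown cells.

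Mrpl49 had the largest difference (0.59, SE 0.08, adjusted p = 7.34e-07, edgeR). With the library values given above, it changed by -0.63 with thapsigargin in knockdown cells and by -1.22 in control cells. Its start lies 59 bases from that of Fau, on the other strand, which encodes a fusion of a ubiquitin-like protein and a cytosolic ribosomal protein. Fau had a difference of -0.09, which did not pass the test. Mrpl34 changed by -0.87 in knockdown cells, with 32.8, 32.7 and 32.0 CPM in Sh2-DMSO, and by -1.38 in control cells, with 29.0, 29.6 and 28.0 CPM in Ctrl-DMSO (difference 0.51, SE 0.09, adjusted p = 4.85e-05, edgeR).

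Mrpl55, of a family shared with bacteria, had 12.3, 13.5 and 12.7 CPM in Sh2-Thap, 14.6, 17.1 and 14.8 CPM in Sh2-DMSO, 8.95, 9.74 and 8.74 CPM in Ctrl-Thap and 15.4, 15.7 and 14.3 CPM in Ctrl-DMSO libraries (difference 0.45, SE 0.12, adjusted p = 0.0028, edgeR). Ctrl-Thap was the lowest of its groups, and the 2 DMSO groups overlapped. Mrpl9 had 55.2, 55.1 and 54.4 CPM in Sh2-DMSO and 48.8, 48.7 and 47.9 CPM in Ctrl-DMSO. It rose with thapsigargin by 0.55 in knockdown cells, while its change of 0.10 in control cells did not pass the test (difference 0.44, SE 0.08, adjusted p = 5.37e-05, edgeR).

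In the other direction Mrpl24 changed by -0.19 in knockdown cells, a call lost with scaling by library totals alone, and by 0.28 in control cells (difference -0.48, SE 0.08, adjusted p = 2.17e-05, edgeR). Mrps6 had 41.1, 42.6 and 47.4 CPM in Sh2-Thap and 31.8, 29.4 and 28.6 CPM in Ctrl-Thap libraries. It fell by 0.44 with thapsigargin in knockdown cells, and its change of -0.03 in control cells did not pass the test (difference -0.40, SE 0.09, adjusted p = 0.000632, edgeR). Slc5a3 changed by -1.52 and -0.65 in the same comparisons. Mrps18b had a difference of -0.35 (SE 0.11, adjusted p = 0.00916, edgeR), a call lost with scaling by library totals alone.

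Of the 77 members 70, or 90.9%, were called in at least 1 of the 5 comparisons, near the 91.1% of all genes tested. The other 7 were called in none: Mrpl4, Mrpl58, Mrps5, Mrps9, Mrps12, Mrps18c and Mrps35. Apart from Mrpl58 and Mrps18c these are named here for that count, after their values were seen. Mrpl58, a peptidyl-tRNA hydrolase that frees stalled mitochondrial ribosomes, had 22.5, 24.7 and 24.7 CPM in Sh2-Thap, 21.3, 21.9 and 20.3 CPM in Sh2-DMSO, 23.7, 25.7 and 19.99 CPM in Ctrl-Thap and 23.6, 21.0 and 19.4 CPM in Ctrl-DMSO. Its Sh2-Thap libraries lay above the Sh2-DMSO libraries without passing the test, and the other pairs of groups overlapped. Mrps36, of the 2-oxoglutarate dehydrogenase complex, fell with thapsigargin by 0.51 in knockdown cells and by 0.57 in control cells.

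Further genes of the mitochondrial translation system were read from 6 lists. Over all genes tested, 28.5% rose and 28.4% fell with knockdown under thapsigargin, and 25.0% rose and 26.5% fell in DMSO. With thapsigargin 35.4% of all genes rose and 34.4% fell in knockdown cells, and 37.7% rose and 37.0% fell in control cells. Of the 5 mitoribosomal proteins with other symbols, 3 rose and 0 fell with knockdown under thapsigargin, and 4 rose and 0 fell in DMSO. Chchd1, a small subunit protein, rose by 0.61 and 0.40, and Gadd45gip1, of the large subunit, by 0.42 and 0.38. The call of Gadd45gip1 in DMSO was lost in 3 of 12 fits without a library, at an adjusted p of up to 0.189. With thapsigargin, 0 rose and 1 fell in knockdown cells and 1 rose and 3 fell in control cells, and Dap3, a GTP-binding small subunit protein, changed by -0.25 in knockdown cells and -0.14 in control cells. Without Ctrl-DMSO replicate 2 the falls in control cells numbered 1, and without Ctrl-Thap replicate 3 those in knockdown cells numbered 2. The falls of Aurkaip1 and Dap3 in control cells were also lost with a filter of at least 1 CPM in 3 libraries. Removing the trend on transcript length lost both as well. That of Aurkaip1 was lost with RLE scaling and with DESeq2, too.

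Of 25 genes of assembly and ribosomal RNA modification, 14 rose and 4 fell with thapsigargin in knockdown cells. These were 56% and 16%, beside 35.4% and 34.4% of all genes. In control cells 13 rose and 6 fell, 52% and 24% beside 37.7% and 37.0%. Mrm1, a methyltransferase of the large ribosomal RNA, rose by 0.87 and 0.57, and the pseudouridine synthase gene Rpusd4 by 0.83 and 0.57. Mpv17l2, which takes part in assembly at the mitochondrial membrane, fell by 0.39 and 0.65. With knockdown under thapsigargin 10 rose and 6 fell, 40% and 24% beside 28.5% and 28.4% of all genes. In DMSO 5 rose and 3 fell, 20% and 12% beside 25.0% and 26.5%. By library totals alone the falls numbered 2 under thapsigargin and 5 in DMSO. Nsun4, an RNA methyltransferase that acts in joining the subunits, changed by -0.71 with knockdown under thapsigargin and by 0.00, without passing the test, in DMSO.

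Of 13 translation factors tested, 3 rose and 3 fell with knockdown under thapsigargin, 23.1% each beside 28.5% and 28.4% of all genes. In DMSO 3 rose and 2 fell, 23.1% and 15.4% beside 25.0% and 26.5%. With thapsigargin, 3 rose and 5 fell in knockdown cells, 23.1% and 38.5% beside 35.4% and 34.4% of all genes. In control cells 3 rose and 4 fell, 23.1% and 30.8% beside 37.7% and 37.0%. The rises in knockdown cells numbered 1 without Sh2-DMSO replicate 1 or 3 or Sh2-Thap replicate 2. Tufm, the mitochondrial elongation factor Tu, rose with knockdown by 0.34 under thapsigargin and 0.19 in DMSO. It fell with thapsigargin by 0.29 in knockdown cells and 0.44 in control cells.

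Of 8 genes of mitochondrial DNA maintenance and transcription, 0 rose and 5 fell with knockdown under thapsigargin. The falls were 62.5%, beside 28.4% of all genes. In DMSO 0 rose and 3 fell, 37.5% beside 26.5%. The DMSO count was 0 with DESeq2 and without Ctrl-DMSO replicate 3 or Sh2-DMSO replicate 1. It was 1 without Ctrl-DMSO replicate 1 or 2 or Sh2-DMSO replicate 2. The DMSO falls of Ssbp1 and Tfam were also lost with RLE or upper quartile scaling and with either other filter. They were lost too in fits on the groups compared or on protein-coding genes alone. By library totals alone 3 fell under thapsigargin. Tfam, which packages mitochondrial DNA and starts its transcription, changed by -0.95 with knockdown under thapsigargin. It rose with thapsigargin by 0.95 in control cells, and by 0.11 in knockdown cells, a call lost in 5 of 12 fits without a library. With thapsigargin 4 of the 8 rose and 2 fell in knockdown cells, 50% and 25% beside 35.4% and 34.4% of all genes. In control cells 4 rose and 3 fell, 50% and 37.5% beside 37.7% and 37.0%. Of 9 regulators of nuclear genes for mitochondria, 7 rose and 1 fell with thapsigargin in each cell population, 77.8% and 11.1%. Over all genes 35.4% rose and 34.4% fell in knockdown cells, and 37.7% rose and 37.0% fell in control cells. Ppargc1a, the PGC-1 alpha coactivator, rose by 2.55 in knockdown and 3.05 in control cells, and Myc by 1.56 and 2.04. Gabpa, which binds the ETS core, rose by 0.34 and 0.41 with thapsigargin and fell with knockdown by 0.50 under thapsigargin and 0.43 in DMSO. With knockdown 2 of the 9 rose and 3 fell under thapsigargin, 22.2% and 33.3% beside 28.5% and 28.4% of all genes. In DMSO 2 rose and 2 fell, 22.2% each beside 25.0% and 26.5%. Their log2 changes ran from -0.50 to 0.45 under thapsigargin and from -0.43 to 0.95 in DMSO. The calls of Ppargc1a and Pprc1 under thapsigargin and of Ppargc1b in DMSO were lost under some alternative.

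Of 13 mitochondrially encoded protein genes 10 had enough reads to be tested. With thapsigargin 0 rose and 8 fell in knockdown cells, 80% beside 34.4% of all genes, with a median log2 change of -0.72. In control cells 0 rose and 7 fell, 70% beside 37.0%, with a median of -0.31. With knockdown under thapsigargin 1 rose and 3 fell, 10% and 30% beside 28.5% and 28.4% of all genes. In DMSO 6 rose and 0 fell, with rises at 60% beside 25.0% and a median of 0.33. The DMSO rise of mt-Co1 was lost in 8 alternatives, and the call of mt-Cytb under thapsigargin in 3. The difference of thapsigargin effects was called down for 7 of the 10 genes and up for 0, with 70% down beside 17.7% of all genes. Its call was lost in 9 alternatives for mt-Nd6 and by library totals alone for mt-Nd4. mt-Nd1, a complex I subunit, changed with thapsigargin by -0.89 in knockdown cells and -0.50 in control cells.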

How the data were processed

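Read counts per gene from 12 poly(A) RNA libraries were used. Per the submitters' processing notes, the authors used Trim Galore, STAR 2.5.3a, bedtools 2.31.0 and DESeq2, with builds mm10 and hg38. The deposited values are whole-number counts per gene and were not normalized. The counting tool and annotation are not given in the sources used here. Entries that name no gene, 13.3% to 14.6% of reads, were left out. GENCODE vM21 (GRCm38) gave symbols for 53706 of 53801 identifiers.

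Low counts were filtered and libraries TMM-scaled in edgeR 4.0.16. Robust quasi-likelihood fits covered all 4 groups, p-values were Benjamini-Hochberg adjusted over 15828 genes, and calls were made under 0.05. Residual degrees of freedom were 8. Each SE was derived from the log2 change and its F statistic (change over root F) and is approximate. On simulated data the fit recovered 98% of genes changed by 1 in log2 and 90% of those changed by 0.5 in a simulated DMSO knockdown contrast. For a simulated difference of thapsigargin effects these shares were 93% and 80%. Of unchanged genes 4 and 7 were called. Only a small set of genes was changed there, as many up as down, and all others were equal across groups. The simulation therefore does not test scaling where many genes change, as in these data. Transcript length is the median over protein-coding transcripts.

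The members and lists were chosen with earlier results of these data known. Named were the 3 largest called rises and falls per comparison and subunit at 5 CPM or more, members with a set-apart role, the 3 highest and lowest per kilobase in each subunit, called members against the main direction in the difference of effects (up to 6), mitoribosomal proteins under other symbols, untested members, Cebpg, and from each other list the 3 largest called changes per direction. The further members called in that difference were named after their values were seen. Fau, Slc5a3 and neighbouring genes are named for their position. Alternatives were 3 other scalings, 2 filters, DESeq2 1.42.0, limma-voom (limma 3.58.1) and fits on the groups compared or on protein-coding genes alone. A transcript length correction, a replicate block and fits without 1 library at a time were also run. Scripts ran in R 4.3.3 and Python 3.11.15 (pandas 2.3.3), with plots by matplotlib 3.10.9.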

Additional observations from a re-analysis of the deposited data

Results flagged for a closer look

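For 14 members the thapsigargin effect differed between knockdown and control cells by a test of the difference itself. The difference in log2, knockdown minus control cells, was positive for Mrpl49 (0.59), Mrpl34 (0.51), Mrpl55 (0.45), Mrpl9 (0.44), Mrpl41 (0.31), Mrps24 (0.31) and Mrpl14 (0.28). It was negative for Mrpl24 (-0.48), Mrps6 (-0.40), Mrps18b (-0.35), Mrpl16 (-0.33), Mrpl44 (-0.25), Mrpl50 (-0.25) and Mrps31 (-0.22).

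Mrpl49, Mrpl34, Mrpl55, Mrpl9, Mrpl24 and Mrps6 kept their call in all 23 alternatives run for this difference. Mrps18b and Mrpl50 lost theirs by library totals alone, and Mrpl16 there and without Ctrl-Thap replicate 2. Out of 12 fits that each left out a library, the call was lost in 5 for Mrpl41, 6 for Mrpl44 and 8 for Mrps31. It was lost in 7 each for Mrpl14 and Mrps24. Adjusted p-values in these edgeR fits reached 0.199. Mrpl41, Mrps24 and Mrpl14 also lost the call with DESeq2. Mrpl14 lost it too with RLE scaling, a filter of at least 1 CPM in 3 libraries and protein-coding genes alone. Mrpl44 and Mrps31 lost theirs by library totals alone and without a filter on low counts, and Mrps31 with upper quartile scaling.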

How the results depend on the processing

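Of 310 called changes of named genes, 237 kept direction and call under all alternatives run, 73 lost the call under at least 1, and 0 reversed. Scaling by library totals alone changed the counts most. With it 64 members rose and 3 fell with knockdown under thapsigargin, 31 rose and 21 fell with thapsigargin in knockdown cells, and the difference of effects was called up for 29 and down for 2. Those settings moved the share of rises among calls to 95.5%, 59.6% and 93.5%, against 85.5%, 35.4% and 50% as reported. The calls of all genes shifted as well. By library totals alone 39.9% of all genes rose and 19.99% fell with knockdown under thapsigargin, against 28.5% and 28.4% as reported. With thapsigargin in knockdown cells 41.8% then rose and 27.3% fell, against 35.4% and 34.4%. The difference was then called up for 32.9% and down for 10.6%, against 17.7% each. The cause of the shift was not tested. DESeq2 called the difference up for 4 and down for 7. In fits that left out 1 library, knockdown under thapsigargin gave 35 to 49 rises and 5 to 8 falls, with 5 without Sh2-Thap replicate 1. The difference of effects gave 4 to 10 calls up, with 4 without Ctrl-DMSO replicate 2 or Ctrl-Thap replicate 3, and 4 to 9 down, with 4 without Ctrl-Thap replicate 2. The other counts stayed within 1.5 times. The median of the small subunit with thapsigargin in knockdown cells was 0.00 by symbol and -0.02 by place. A replicate block gave 49 up and 8 down for knockdown under thapsigargin, 44 and 3 in DMSO, 18 and 31 for thapsigargin in knockdown cells, 18 and 31 in control cells, and 10 and 7 for the difference. With the transcript length correction added the block gave 42 and 8, 39 and 3, 21 and 28, 22 and 28, and 9 and 9. Replicate numbers are shared by label only, and deviations of same-numbered libraries correlated at -0.03 to 0.08, against -0.08 to 0.08 for others, so the block is no paired test. Counting error limits Mrps18c, near 1 CPM, and Mrpl53, with 0 reads.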

Other observations

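Many members share a start region with a gene on the other strand. Of 78 members 33, or 42.3%, have a protein-coding neighbour whose start lies within 1000 bases and that is read in the opposite direction, against 2091 of 13508 protein-coding genes tested, or 15.5%. The pair Mrpl46 and Mrps11, with starts 412 bases apart, is the only case in which both partners are members. With knockdown Mrpl46 changed by 0.18 under thapsigargin, without passing the test, and by 0.35 in DMSO, and Mrps11 by 0.38 and 0.30. With thapsigargin Mrps11 changed by -0.24 in knockdown cells and -0.32 in control cells, while the changes of Mrpl46, -0.05 and 0.13, did not pass the test.

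Neighbours and members did not always move in 1 direction. Mrps18b rose with thapsigargin, while Ppp1r10, a phosphatase regulator gene whose start lies 45 bases away, changed by -0.34 in knockdown cells, and its change of -0.09 in control cells did not pass the test. Mrpl32 rose by 0.26 and 0.46, while Psma2, a proteasome subunit gene 75 bases away, changed by -0.92 and -0.72 in knockdown and control cells. Mrpl14 changed by -0.49 and -0.77, and Tmem63b, 583 bases away, by -0.60 and -0.99. These neighbours were chosen after their values were seen.

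The 13 members with an NRF1 match in a start window were set beside the 55 other tested members with a window. With knockdown under thapsigargin 8 of the 13 rose and 1 fell, with a median log2 change of 0.13, and 32 of the 55 rose and 7 fell, with a median of 0.19. With thapsigargin in control cells 3 of the 13 rose and 5 fell, and 13 of the 55 rose and 24 fell. Over all genes tested 37.7% rose and 37.0% fell there. Of the 8 members with a YY1 match, 6 rose and 0 fell with knockdown under thapsigargin and 5 rose and 0 fell in DMSO. Of the 60 without one, 34 rose and 8 fell and 33 rose and 3 fell. With an ETS match 13 of 25 rose and 1 fell under thapsigargin, and 12 rose and 1 fell in DMSO. With a CCAAT box 17 of 26 rose and 1 fell, and 15 rose and 0 fell. Over all genes tested 28.5% rose and 28.4% fell under thapsigargin, and 25.0% and 26.5% in DMSO. Whether a match bears on the response was not tested.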
